A study of Mus musculus with 36 samples.

Results

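Circular RNAs of the mouse hippocampus were compared between the middle of the dark phase (ZT17) and the middle of the light phase (ZT5). Zeitgeber time (ZT) counts the hours from lights on, so these groups lay 12 h apart, at opposite points of the light-dark cycle. The comparison took the hippocampus samples labelled with these time points, 3 per group, which are 6 of the 36 samples of the series. All samples came from untreated male mice, 9 to 10 weeks old, of the strain labelled C57BL/6 (given as C57BL6/N in the study's methods), kept in a light-dark cycle, whose whole hippocampus or frontal cortex was dissected after perfusion. Total RNA was depleted of ribosomal RNA and sequenced. The other hippocampus samples (ZT1, ZT9, ZT13 and ZT21) served to estimate the spread between replicates, and the frontal cortex at the same times was used for one comparison. The labels number the replicates of a time point but do not name the animals.

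A circular RNA (circRNA) forms when the end of an exon is spliced back to the start of the same or an earlier exon of the same transcript, which closes the RNA into a ring without free ends. Reads across this head-to-tail (back-splice) junction cannot come from the linear mRNA, and the junction read count is the measurement here. CircRNAs are abundant in neurons, many come from genes of the synapse, and they are degraded slowly compared with most mRNAs. The hippocampus holds the circuits of spatial and episodic memory, and mice are mostly awake in the dark phase and mostly asleep in the light phase. The comparison therefore asks whether hippocampal circRNAs differ between the active and the resting phase.

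Each circRNA is named by its host gene and by its first and last exon in the matched GENCODE vM21 transcript, as in Ssbp2(2-4). The junctions that the results turn on are shown first, because the junction is the part of a circle that was counted. Each line gives the 15 bases before the junction in lower case and the 15 bases after it in capitals, on the strand of the gene, 5′ to 3′, from the GENCODE transcripts of GRCm38. Cdr1as and Gigyf2(4-8) were among the circles with most reads. Aftph(2), Ssbp2(2-4), Elavl2(2-3), Foxn2(2) and the Dennd1b circles were among those with the smallest unadjusted p and less signal at ZT17, and Acer3(2-7), Pclo(3) and Lin54(2-4) among those with more. Nell2(14-16) was present in some samples and absent from others. Homer1(2-5) comes from a gene of the wake-sleep list.
Cdr1as, chrX:61183248-61186174, plus strand: gtctgccgtatccagGGTTTCCAGTGGTGC
Gigyf2(4-8), chr1:87364104-87380008, plus strand: gaagaaaagatgtagGCTCCGTGCTCTGTC
Aftph(2), chr11:20725685-20727639, minus strand: ggcacttcagttcagGCATAAACTAACTAC
Ssbp2(2-4), chr13:91524585-91564694, plus strand: gccttccatgattatGTTAGCACTCTACGT
Elavl2(2-3), chr4:91308611-91311663, minus strand: gagacaaaataacagACGGCAACTCCAAAC
Foxn2(2), chr17:88462713-88463263, plus strand: agaagtcatggcaagAAATATACGAGTAAA
Dennd1b(6-14), chr1:139053346-139110485, plus strand: cagctctttaagcagTTACTTGCCATGGTT
Dennd1b(11-14), chr1:139085883-139110485, plus strand: cagctctttaagcagTGCCCCAATGCCATA
Acer3(2-7), chr7:98243949-98266247, minus strand: ttatattgttacatgGGAATACAGTGAGTA
Pclo(3), chr5:14539410-14540801, plus strand: ccccacctgactgagATCAAAGAGTGGCTC
Lin54(2-4), chr5:100475689-100485855, minus strand: aagtcgccaaataagCACCTGGGCATCTCT
Nell2(14-16), chr15:95296159-95346887, minus strand: ccagctgtgagacagACATTGACGAGTGTG
Homer1(2-5), chr13:93341756-93356079, plus strand: gccatttccacatagGGAGCAACCTATCTT
The lower-case parts of both Dennd1b circles are the same, since both end at exon 14, and only their first exons differ.

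The hippocampus table lists 23734 circRNAs, of which 5505 were detected in 2 or more replicates of some time point and were kept. The kept circRNAs gave 14690, 20536 and 22612 junction reads in the ZT5 samples and 20435, 19670 and 18291 in the ZT17 samples, so 1 ZT5 sample was shallower than the other 5. The mean total at ZT5 was 19279 ± 4108 and that at ZT17 19465 ± 1087 (SD, n = 3 each), and the groups overlapped (two-sided exact permutation test, p = 1, smallest possible 0.1). The files do not give the full sequencing depth, so these totals are not a measure of circular RNA per cell. In tissue samples such as these, fewer cells of a type and less RNA per cell cannot be told apart.

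No circRNA passed the test between ZT17 and ZT5. Of 582 circRNAs with enough reads for the test, 0 (0%) had an adjusted p under 0.05 (edgeR, quasi-likelihood test, Benjamini-Hochberg), and the smallest adjusted p was 0.997. At an unadjusted p under 0.05 there were 12 (2.06%), of which 5 (0.859%) were higher and 7 (1.2%) lower at ZT17. With DESeq2's size factors, or with library totals alone, 12 circRNAs again had such a p, 10 of them the same, and the split was 7 higher and 5 lower. Leaving out 1 of the 6 samples also changed which circRNAs passed the filter, with 637 to 732 tested. It gave 13 to 18 such circRNAs, of which only 5 to 7 were among the 12. The split was 12 higher and 4 lower without ZT5 replicate 2, 8 and 7 without ZT5 replicate 1, 8 and 5 without ZT17 replicate 1, and 7 and 11 without ZT17 replicate 2. DESeq2 also called 0, of 580 with an adjusted p, and gave 9 at an unadjusted p under 0.05. Hippocampus ZT1 replicate 3 and ZT13 replicate 1 were treated as outliers in a separate setting and kept in the main fit. Without them, 19 of 649 circRNAs had an unadjusted p under 0.05, 10 higher and 9 lower, and these included the 12. Of these 649, 0 passed, and the smallest adjusted p in edgeR's test was 0.498. The 582 differences were centred on 0, with a median log2 fold change of -0.005, 288 (49.5%) above 0 and 294 below. Their middle part, from the lower to the upper quartile, ran from -0.26 to 0.22.

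How closely these values limit a change depended on the reads. The median standard error of the log2 fold change was 0.44 over all 582, and it was 0.63 in the 146 circRNAs with fewest reads (9 to 48 over the 6 samples) and 0.28 in the 146 with most (113 to 7863). For 190 of 582 circRNAs (32.6%) the 95% interval lay wholly within 1 log2 unit of 0, that is, within a 2-fold change in either direction. Of the 146 with most reads this held for 120 (82.2%), and of the 146 with fewest for 2 (1.37%). For most circRNAs the interval thus reached beyond 2-fold in at least 1 direction, and a change of that size was not excluded at this depth.

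**Figure D1:**
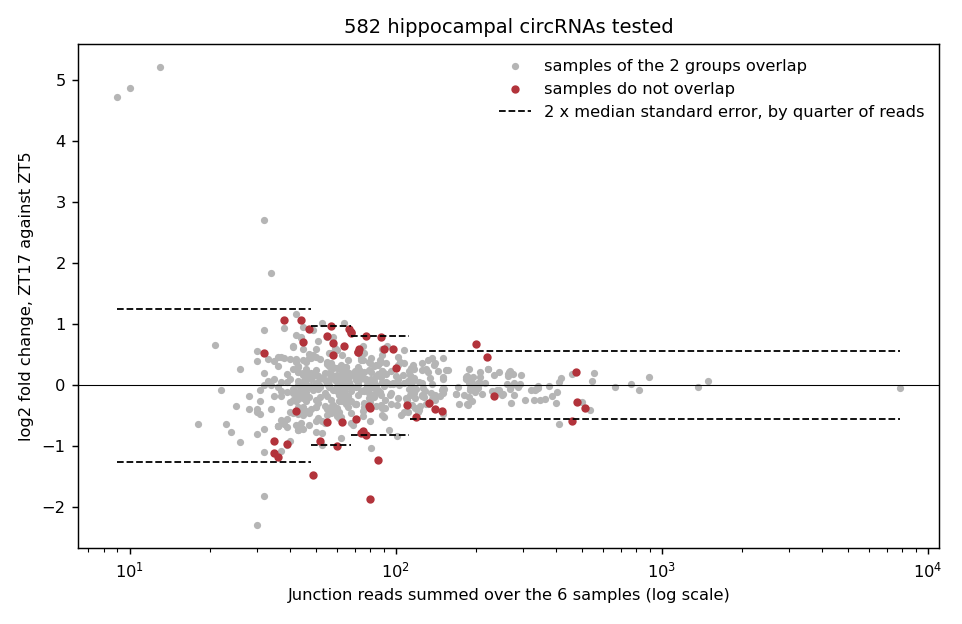
The log2 fold change at ZT17 against ZT5 of each of the 582 circRNAs tested is plotted against its junction reads over the 6 samples, on a log axis. Red points mark the 51 circRNAs whose ZT5 and ZT17 samples did not overlap, and dashed lines lie at 2 times the median standard error of each of 4 groups by reads. The cloud is centred on 0 and narrows from left to right, and the 3 points above 4 have 9 to 13 reads.

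Samples of one time point were about as alike as samples of different time points. Across the tested circRNAs, Spearman's correlation of log2 levels between samples was 0.673 to 0.681 among the ZT5 samples, 0.68 to 0.706 among the ZT17 samples and 0.638 to 0.752 between them. The highest of them, 0.752, joined ZT5 replicate 3 and ZT17 replicate 1. All of these are correlations across circRNAs, which are not independent replicates.

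For the circles with most reads, the samples of ZT5 and ZT17 overlapped. Cdr1as, a single-exon circle of 2927 nt known for its many binding sites for the microRNA miR-7, gave more reads than any other. Normalized reads are counts divided by the TMM-scaled library size and multiplied by the mean scaled library size of the 18 hippocampus samples. For Cdr1as they were 1387, 1616 and 1237 at ZT5 and 1287, 1431 and 1411 at ZT17. The ZT17 samples lay inside the range of the ZT5 samples, and the log2 fold change of -0.04 had a 95% interval of -0.47 to 0.39. As a share of junction reads, Cdr1as took 7.15%, 7.61% and 5.99% at ZT5 and 6.19%, 6.99% and 6.88% at ZT17 (two-sided exact permutation test, p = 0.7). The Wilson 95% interval of a single sample spanned for example 6.74% to 7.58% in the shallowest one, for counting error only.

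The sequence of Cdr1as set it apart from the other circles tested. The mature mouse miR-7a-5p, from RefSeq (GRCm38.p6), is shown with its seed (bases 2 to 8) in capitals, because the letters that pair with this seed recur in Cdr1as.
mmu-miR-7a-5p, chr7:78888295-78888317, plus strand: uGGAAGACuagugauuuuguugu
The letters complementary to the seed, GUCUUCC, occurred 123 times on the transcribed strand of the spliced Cdr1as sequence. They occurred in 26 of the other 497 tested circles with a spliced sequence (5.23%), at most 2 times in one. A match is a description of the sequence and not a measured binding site.

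The next circles in the order of reads also overlapped between the times. A circle of Tulp4 (chr17:6137211-6139156), whose ends are exon boundaries of different transcripts, had 242, 262 and 265 normalized reads at ZT5 and 257, 299.9 and 254 at ZT17, with a log2 fold change of 0.08 (95% interval -0.42 to 0.57). Gigyf2(4-8), from the gene of a protein that represses the translation of mRNAs with stalled ribosomes, had 263, 229 and 243 at ZT5 and 237, 241 and 242 at ZT17 (-0.03, 95% interval -0.40 to 0.35). Ankib1(2-5), from a ubiquitin ligase gene, had 166, 159 and 131 at ZT5 and 169.99, 169.7 and 161 at ZT17 (0.14, 95% interval -0.31 to 0.58). The ZT17 samples of Gigyf2(4-8) and Ankib1(2-5) lay closer together than the ZT5 samples did.

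Slc8a1(2), the large second exon of the sodium-calcium exchanger gene, had 150 ± 25.3 normalized reads (SD, n = 3) at ZT5 and 143 ± 5.88 at ZT17. Dtnb(5-8), from the dystrobrevin beta gene, had 119 ± 4.97 and 117 ± 0.862 (SD, n = 3). Kat6b(2), from a histone acetyltransferase gene, had 92.5 ± 8.31 and 106 ± 8.03 (SD, n = 3). Fat3(2), from a protocadherin gene, had 94.7 ± 8.37 and 99.4 ± 23.3 (SD, n = 3). Tcf20(2), from a transcriptional coregulator gene, had the largest difference of these circles, with 115, 82.8 and 126 at ZT5 and 88.6, 88.5 and 68.4 at ZT17, and its groups overlapped too (log2 fold change -0.40, 95% interval -0.87 to 0.07).

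**Figure D2:**
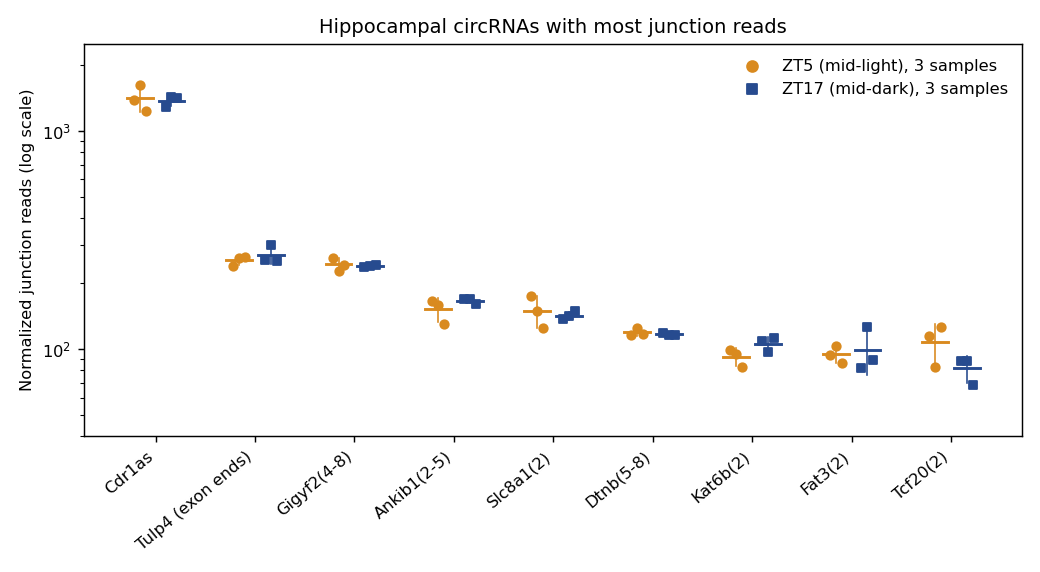
Normalized junction reads, on a log axis, of 9 of the 10 circRNAs with most reads (Nell2(14-16), which is at 0 in 4 samples, is left out), with ZT5 samples as orange circles and ZT17 samples as blue squares. Horizontal bars are means and vertical lines SDs of 3 samples, and the groups overlap for all 9 circles.

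Nell2(14-16), from the gene of a secreted neuronal protein with EGF-like domains, was either abundant or absent. It gave 0, 0 and 398 reads in the ZT5 samples and 367, 0 and 0 in the ZT17 samples. At each time 1 sample had the circle and 2 did not. Over all 18 hippocampus samples it had reads in 8, with 286 to 446 reads each, and over the 18 frontal cortex samples in 3, with 244 to 273 reads each. The fitted difference had a standard error of 2.11 and says nothing about time of day. Nell2(11-14), which shares exon 14 with it, had reads in all 6 samples, with 12, 14 and 13 at ZT5 and 13, 10 and 9 at ZT17.

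Of the 582 circRNAs, 51 (8.76%) had 3 samples of one time point all above the 3 of the other, 24 (4.12%) higher at ZT17 and 27 (4.64%) higher at ZT5. None of them passed the test over all circRNAs, and the circles described next are those with the smallest unadjusted p in each direction.

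Among circles with more reads at ZT17, a circle within Arf3 had the smallest p. Arf3 encodes a small GTPase of Golgi and endosome traffic, and the ends of this circle (chr15:98740337-98742829) are not both exon boundaries. It had 0, 4.14 and 0 normalized reads at ZT5 and 4.07, 11.5 and 14.6 at ZT17, so 1 ZT17 sample fell to the level of the highest ZT5 sample. Its value of 2.71 on the log2 scale has a standard error of 0.79 and rests on 32 reads in all (unadjusted p = 0.00244, adjusted p = 0.997 in edgeR's test). At the other times its mean was 7.82 to 11.6, so that the ZT5 mean of 1.38 stood below the mean of every other time point.

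Acer3(2-7) comes from the gene of an alkaline ceramidase. It had 30.4, 30.0 and 22.8 normalized reads at ZT5 and 36.6, 41.7 and 53.8 at ZT17. Every ZT17 sample was above every ZT5 sample, and the log2 fold change was 0.67 (95% interval 0.12 to 1.22, adjusted p = 0.997 in edgeR's test). A smaller circle of the gene that starts at the same exon, Acer3(2-6), had 11 reads at ZT5 and 14 at ZT17.

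Pclo(3) is the third exon of Piccolo, a large scaffold protein of the presynaptic active zone. It had 5.28, 10.3 and 8.22 normalized reads at ZT5 and 13.2, 17.7 and 15.7 at ZT17, without overlap (log2 fold change 0.93, standard error 0.43, adjusted p = 0.997 in edgeR's test). The circle of exons 7 to 9 of the same gene had 12 reads at ZT5 and 6 at ZT17. The 2 Piccolo circles thus did not differ in the same direction.

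Lin54(2-4), from a DNA-binding subunit of the DREAM cell cycle complex, had 6.61, 12.4 and 6.40 at ZT5 and 17.3, 12.5 and 16.8 at ZT17 (log2 fold change 0.86, standard error 0.40). Its lowest ZT17 sample was close to its highest ZT5 sample. Crim1(2-7), from a gene of a BMP-binding membrane protein, had 8.41 ± 1.46 at ZT5 and 15.7 ± 4.88 at ZT17 (SD, n = 3). Plekha5(11-17), from a gene of a pleckstrin homology domain protein, had 11.5 ± 1.51 and 19.6 ± 5.95 (SD, n = 3). The groups did not overlap for either of them. Brinp1(6-7), from a neural gene, had 3.96, 4.14 and 0 at ZT5 and 16.3, 9.37 and 2.24 at ZT17 and overlapped.

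Among circles with fewer reads at ZT17, Aftph(2) had the smallest p. Aftph encodes aftiphilin, an adaptor of clathrin-coated vesicles, and the circle is its single second exon of 1955 nt. It had 26.4, 19.7 and 19.2 normalized reads at ZT5 and 9.16, 10.4 and 7.84 at ZT17. The lowest ZT5 sample stood well above the highest ZT17 sample, and the log2 fold change was -1.22 (95% interval -2.10 to -0.34, unadjusted p = 0.00865, adjusted p = 0.997 in edgeR's test). The circle of exons 3 to 6 of the gene had 7 reads at ZT5 and 8 at ZT17.

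Ssbp2(2-4) was the circle with most reads among those with an unadjusted p under 0.05. Ssbp2 encodes a single-stranded DNA-binding protein that stabilizes LIM-domain transcription complexes. The circle had 92.5, 106 and 95.02 normalized reads at ZT5 and 74.3, 59.4 and 60.5 at ZT17. The groups were separate, and the fitted difference was -0.59 on the log2 scale, with a 95% interval of -1.07 to -0.12 (unadjusted p = 0.0168, adjusted p = 0.997 in edgeR's test). Other Ssbp2 circles had few reads. The one of exons 2 to 5 had 21 reads at ZT5 and 12 at ZT17, and one from exon 2 to a point inside the gene (chr13:91524585-91604455) had 21 and 24.

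Dennd1b, the gene of a RAB35 activator in endocytic traffic, gave 16 kept circles, which differed in direction. Dennd1b(11-14) had 15.9, 13.4 and 10.1 normalized reads at ZT5 and 5.09, 0 and 8.96 at ZT17 (log2 fold change -1.46, standard error 0.68). Dennd1b(6-14) had 17.2, 13.4 and 12.8 at ZT5 and 2.04, 8.33 and 11.2 at ZT17 (95% interval of the log2 fold change -1.99 to -0.0059). Both were lower in every ZT17 sample. Dennd1b(10-14), with the same last exon, had 31 reads at ZT5 and 30 at ZT17, and Dennd1b(4-14) had 22 and 23. The most abundant circle of the gene, Dennd1b(4-9), had 36, 36 and 60 reads at ZT5 and 60, 39 and 20 at ZT17. The sum over the gene was 132 ± 17.99 normalized reads at ZT5 and 117 ± 18.04 at ZT17 (SD, n = 3), a difference smaller than either SD.

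Elavl2(2-3) comes from the gene of HuB, a neuronal RNA-binding protein. It had 11.9, 14.5 and 1.83 normalized reads at ZT5 and 0, 5.21 and 0 at ZT17, so 1 ZT5 sample fell among the ZT17 samples (log2 fold change -2.29, standard error 0.96, from 30 reads in all). Foxn2(2), from a forkhead transcription factor gene, had 17.2, 13.4 and 19.2 at ZT5 and 9.16, 11.5 and 8.96 at ZT17, without overlap (-0.75, standard error 0.33). Papss1(9-12), from the gene of the enzyme that makes the sulfate donor PAPS, had 16.1 ± 4.82 at ZT5 and 9.53 ± 1.04 at ZT17 (SD, n = 3), and its groups did not overlap. Fut8(4-5), from the gene of the core fucosyltransferase, had 22.3 ± 8.15 and 12.7 ± 1.72 (SD, n = 3), with overlap.

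**Figure D3:**
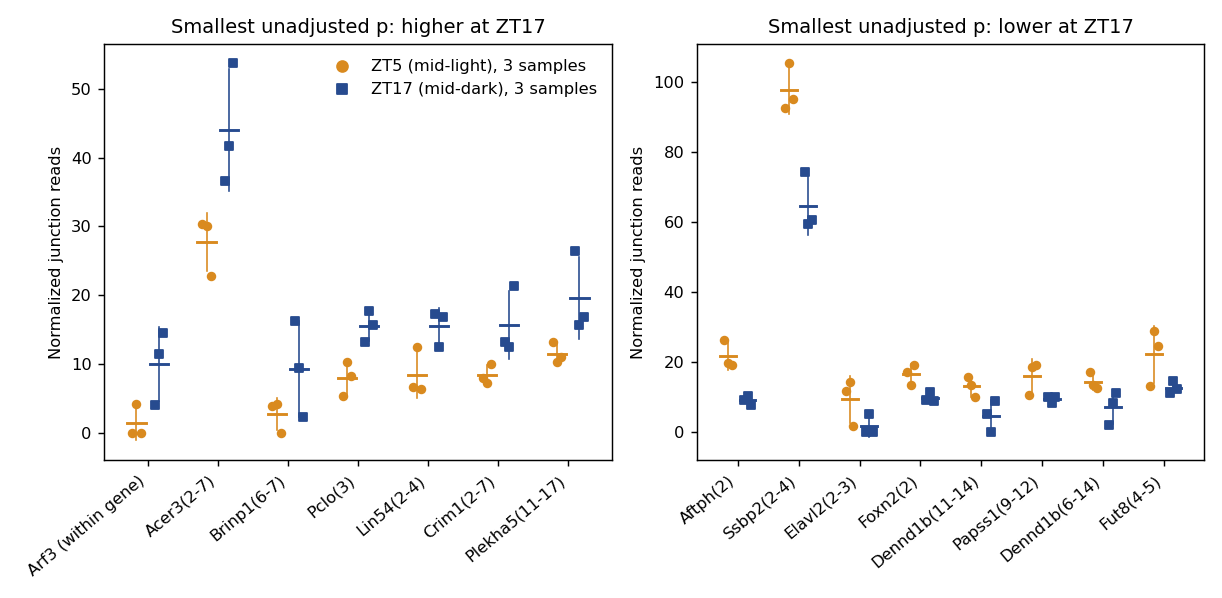
Normalized junction reads in each sample of 7 circRNAs with a small unadjusted p that were higher at ZT17 (left) and 8 that were lower (right), with ZT5 as orange circles, ZT17 as blue squares, bars for means and lines for SDs of 3 samples. All 15 had an adjusted p of 0.997, and the groups overlap for Arf3, Brinp1(6-7), Elavl2(2-3) and Fut8(4-5).

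Since many circles had few reads, the reads of all kept circles of a host gene were also summed. Again 0 of 619 host genes (0%) passed the test in edgeR, with a smallest adjusted p of 0.907, and 16 (2.58%) had an unadjusted p under 0.05, 8 (1.29%) higher and 8 (1.29%) lower at ZT17. DESeq2 called 0 and gave 16 at an unadjusted p under 0.05. Without hippocampus ZT1 replicate 3 and ZT13 replicate 1, 25 of 671 host genes had such a p, 10 higher and 15 lower. Of these 671, 0 passed, and the smallest adjusted p in edgeR's test was 0.272. Leaving out 1 sample gave 14 to 25 of the 640 to 700 host genes then tested. The count was 25 (12 higher, 13 lower) without ZT5 replicate 3. It was 24 (12 and 12) without ZT5 replicate 1 and 21 (8 and 13) without ZT17 replicate 2. Groups did not overlap for 56 of 619 (9.05%), 24 (3.88%) higher at ZT17 and 32 (5.17%) higher at ZT5.

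Elavl2 and Arf3 had the smallest adjusted p. For Elavl2, both of its circles had fewer reads at ZT17, and their sum was 20.6, 20.7 and 9.31 normalized reads at ZT5 and 3.00, 5.28 and 5.70 at ZT17 (log2 fold change -1.81, 95% interval -2.95 to -0.68). The groups did not overlap, unlike those of Elavl2(2-3) alone. For Arf3 the sum of 2 circles was 4.11, 4.14 and 4.65 at ZT5 and 10.02, 14.8 and 17.1 at ZT17, also without overlap (1.65, 95% interval 0.66 to 2.65).

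For Ssbp2 the sum over 6 circles was 117, 127 and 110 at ZT5 and 86.1, 77.1 and 79.8 at ZT17 (-0.54, 95% interval -0.90 to -0.18). For Tasp1, the gene of the protease taspase 1, the sum over 16 circles was 98.7, 99.5 and 90.3 at ZT5 and 78.1, 58.1 and 61.6 at ZT17 (-0.54, 95% interval -1.06 to -0.02). The 4 Tasp1 circles that were tested one by one all had values below 0, from -0.15 to -0.77, but they are parts of this sum and not separate support. The Tasp1 sum was 74.4 ± 11.5 at ZT1, 67.9 ± 12.6 at ZT9, 138 ± 74.6 at ZT13 and 96.4 ± 6.51 at ZT21 (SD, n = 3). The means at the other dark-phase times were thus higher than that at ZT17, but the ZT13 samples spread widely. They include ZT13 replicate 1, which a separate setting treated as an outlier. The other host genes with a small p and lower sums at ZT17 were Aftph, Odf2, Tcf20, Slc9a7 and Robo1. Of these, Aftph had 27.4, 24.9 and 23.3 at ZT5 and 15.0, 12.7 and 7.98 at ZT17.

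Dlg1, the gene of the synaptic scaffold SAP97, had 15.1, 14.5 and 11.2 normalized reads over its 6 circles at ZT5 and 19.0, 31.7 and 19.4 at ZT17, without overlap (0.79, 95% interval 0.09 to 1.49). Dcc, the gene of the netrin receptor, had 0, 4.14 and 4.65 at ZT5 and 9.01, 12.7 and 7.98 at ZT17, also without overlap. Acer3 and Brinp1, described above, were in this group too, together with Dync1i1, Nova2 and Zeb1, whose groups overlapped. Nova2, a neuronal splicing regulator, had 4.11, 5.18 and 4.65 at ZT5 and 5.01, 10.6 and 17.1 at ZT17.

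Lists of host genes for functions of the hippocampus were then read against all tested circRNAs, of which 49.5% were above 0 with a median of -0.005. No circRNA of any list passed the test. Lists share genes, such as Ryr2, and were read by counts and medians only.

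Genes of the molecular clock, the feedback loop of transcription factors that keeps daily time, gave few circular reads. Of 28 clock and clock-associated genes, 6 had a kept circle, and none of their 9 circles had enough reads for the test. Npas2, a partner of BMAL1, gave most, with 8, 9 and 7 reads at ZT5 and 9, 3 and 6 at ZT17. Hlf, a PAR-domain output factor, had 2, 6 and 3 at ZT5 and 0, 5 and 2 at ZT17, and Cry1, a repressor of the clock, had 0, 5 and 2 and then 0, 0 and 4. Clock had no read at ZT5 and 4, 3 and 0 at ZT17. Together the clock genes gave 0.0531% to 0.0974% of reads at ZT5 and 0.0656% to 0.0979% at ZT17.

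Among genes that regulate sleep and wake, 6 circles of 5 hosts were tested, 1 above 0 and 5 below, with a median of -0.20. Homer1(2-5), from a postsynaptic scaffold gene whose short isoform is induced by wakefulness, was the one above 0. It had 30.4, 10.3 and 21.01 normalized reads at ZT5 and 21.4, 30.2 and 29.1 at ZT17, with wide overlap (0.41, 95% interval -0.42 to 1.25). Ryr2(24-29), from the ryanodine receptor gene of intracellular calcium release, had 43.6, 20.7 and 31.1 at ZT5 and 23.4, 14.6 and 30.3 at ZT17 (-0.46, 95% interval -1.19 to 0.27).

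Circles of synaptic genes lay on both sides of 0. Of 16 circles of presynaptic release and active zone genes, 5 were above 0 and 11 below (median -0.18). The most abundant of them came from Rims1, an organizer of vesicle priming. Rims1(30-32) had 41.0, 66.2 and 65.8 normalized reads at ZT5 and 40.7, 67.7 and 57.1 at ZT17 (-0.07, 95% interval -0.57 to 0.43). Another Rims1 circle with the same last exon (chr1:22346293-22393948) had 71.9 ± 11.0 at ZT5 and 63.7 ± 27.1 at ZT17 (SD, n = 3). Of 11 circles of postsynaptic scaffold genes, 6 were above 0 (median 0.17), with 46.4 ± 8.41 and 52.0 ± 7.27 (SD, n = 3) for Dlgap1(10-12) and 34.6 ± 4.75 and 33.3 ± 13.5 (SD, n = 3) for Anks1b(5-8).

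Of 4 circles of glutamate receptor genes, 3 were above 0 (median 0.19). Grin2b(7-11), from an NMDA receptor subunit gene, had 16.9 ± 4.67 normalized reads at ZT5 and 14.8 ± 0.402 at ZT17 (SD, n = 3). Grm5(2-3), from a metabotropic receptor gene, had 11.97 ± 4.67 and 15.7 ± 8.46 (SD, n = 3). Both circles of GABA receptor genes were above 0. Gabra2(4-8) had 9.96 ± 6.48 and 12.4 ± 5.37 (SD, n = 3) and Gabra4(3-8) 7.06 ± 2.99 and 9.93 ± 5.90 (SD, n = 3), each with overlap. Summed over all 19 kept circles of GABA receptor genes, the share of junction reads was 0.177%, 0.190% and 0.168% at ZT5 and 0.269%, 0.214% and 0.268% at ZT17, without overlap.

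Of 11 circles of synaptic adhesion genes, 7 were above 0, with a median of 0.37.

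Of 9 circles of voltage-gated ion channel genes, 1 was above 0 and 8 below, with a median of -0.19. Kcnt2(4-13), from a sodium-activated potassium channel gene, had 27.8 ± 10.5 and 26.3 ± 3.61 normalized reads (SD, n = 3). Cacna1c(2-3), from an L-type calcium channel gene, had 25.3 ± 6.68 and 23.1 ± 5.89 (SD, n = 3). The summed share of the list over its 83 kept circles was 1.27%, 1.25% and 1.19% at ZT5 and 1.09%, 1.12% and 1.04% at ZT17, without overlap. Calcium and cyclic nucleotide signalling genes had 2 of 11 tested circles above 0 (median -0.18). Their summed share was 2.26%, 2.07% and 2.07% at ZT5 and 1.87%, 2.00% and 1.96% at ZT17, again without overlap. Apart from these 2 lists and the GABA receptor genes, the summed shares of all host lists overlapped between the times. The shares were read without a test, and a separation of 3 against 3 samples reaches only p = 0.1 in an exact permutation test. Prkce(8-11), from a protein kinase C gene, had 44.1 ± 6.87 and 41.3 ± 1.55 (SD, n = 3).

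Of 15 circles of ubiquitin system genes, 2 were above 0 (median -0.18), with 76.6 ± 18.4 and 63.0 ± 12.4 normalized reads (SD, n = 3) for Ttc3(2-11) and 51.9 ± 4.05 and 50.7 ± 2.39 (SD, n = 3) for Rnf169(2-4). Of 22 circles of chromatin regulator genes, 12 were above 0 (median 0.01), against 14 with DESeq2's size factors and 13 with library totals. Ncoa2(2-4), from a nuclear receptor coactivator gene, had 48.4 ± 3.91 and 48.0 ± 4.15 (SD, n = 3). Phf21a(3-7) had 39.1 ± 0.703 and 43.7 ± 4.75 (SD, n = 3). Of 9 circles of splicing and RNA-binding regulator genes, 7 were above 0 (median 0.14). Hnrnpu(4-6) had 70.1 ± 4.49 and 76.6 ± 2.35 (SD, n = 3), Elavl3(2-3) had 34.4 ± 6.97 and 38.2 ± 3.06 (SD, n = 3), and Elavl2(2-3) was the lowest of the list. The 42 tested circles of 23 well-studied circRNA hosts had 18 above 0 and a median of -0.04.

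**Figure D4:**
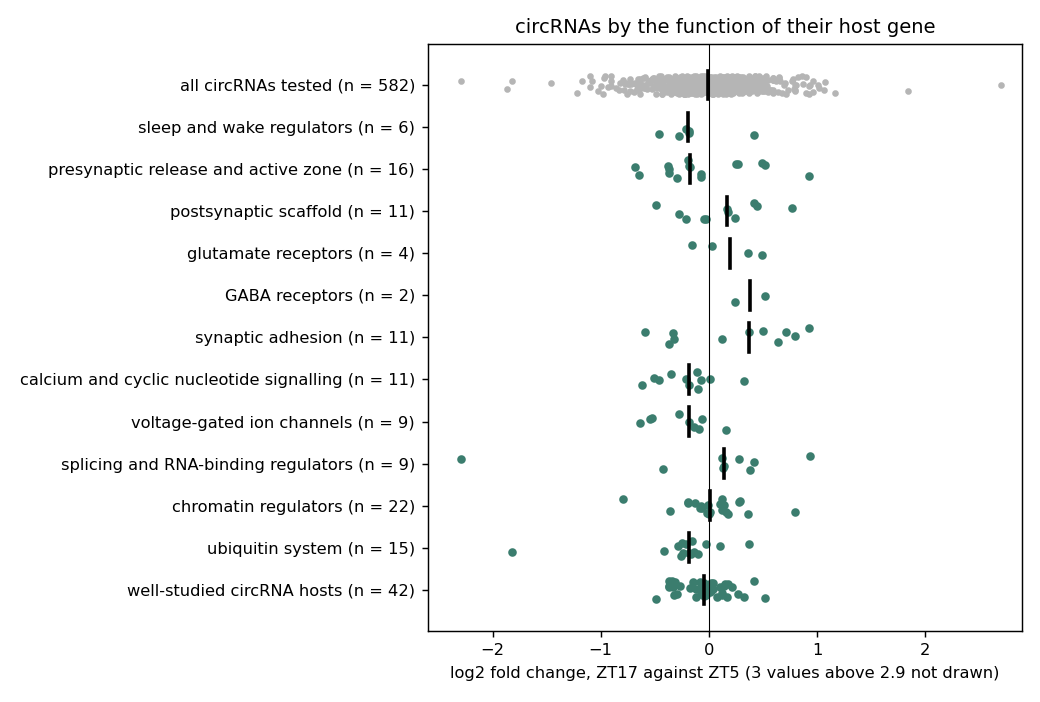
Each point is the log2 fold change at ZT17 against ZT5 of 1 tested circRNA, in rows by the function list of its host gene, and vertical bars are medians. The medians of the lists lie between -0.20 and 0.38, and each list is a part of the 582 tested circRNAs in the top row.

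The make-up of the circles was alike at both times. Circles whose ends are both annotated exon boundaries took 91.8 ± 0.919% of reads at ZT5 and 91.7 ± 0.135% at ZT17 (SD, n = 3, exact permutation test, p = 0.7). Circles of a single exon, Cdr1as left out, took 8.89 ± 0.297% and 8.81 ± 0.235% (SD, n = 3, exact permutation test, p = 0.8). Of the 582 tested circles 532 ended at exon boundaries, and the median circle had 4 exons and 569 nt. The median log2 fold change was 0.01 for 479 circles of several exons, -0.07 for 52 of a single exon and -0.06 for 42 within a gene but off its exon boundaries.

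The numbers of circles found were close at both times. At ZT5 3947 kept circRNAs had a read and at ZT17 4055, with 3254 found at both, and 942 were found in all 6 samples. These 942 held 67.1% to 73.2% of the reads of a sample. After each sample was thinned to 14690 reads, 2230 ± 13.5 circRNAs remained at ZT5 and 2255 ± 13.01 at ZT17 (SD, n = 3, two-sided exact permutation test, p = 0.2). The circles found in at least 2 replicates numbered 2617 at ZT5 and 2687 at ZT17, and the 1807 shared ones were 69.0% of the former and 67.2% of the latter. The part shared between replicates of the same time point was not set beside these values, so they do not show how alike the sets are.

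Reads in all 3 samples of one time point and in none of the other occurred for 33 of the 5505 kept circRNAs in each direction. Dgki(6-15), from the gene of diacylglycerol kinase iota, had most at ZT17, with 20 reads against 0 at ZT5. Mbtd1(4-17) and Zdhhc20(2-4) had most at ZT5, with 14 each against 0 at ZT17. In the hippocampus samples of the other times, Dgki(6-15) had reads in 11, Mbtd1(4-17) in 6 and Zdhhc20(2-4) in 11. A count of 0 allows an expected count of up to 3, and the smallest count above 0 was 2. These differences thus rest on few reads, and none was tested alone.

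The marker genes of cell types were checked through their circles. Of 12 hippocampal neuron markers 4 had reads, led by Zbtb20 (28, 30 and 41 reads at ZT5, 42, 47 and 39 at ZT17) and Prox1 (7, 12 and 10 at ZT5, 22, 7 and 7 at ZT17), whose products define hippocampal and dentate granule neurons. They took 0.229% to 0.279% of reads at ZT5 and 0.268% to 0.362% at ZT17, above the 0.0341% to 0.0927% of the frontal cortex samples at these times. The defining markers C1ql2, Calb1 and Wfs1 had no read in a kept circle. The neocortical projection neuron list was not lower in the hippocampus than in the cortex. It took 0.164% to 0.286% of hippocampus reads at ZT5 and 0.197% to 0.234% at ZT17, against 0.104% to 0.194% in the cortex. All lists of microglia and of endothelial and mural markers were at 0.

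The astrocyte list took 0.0408%, 0.0779% and 0.0840% of reads at ZT5 and 0.117%, 0.147% and 0.153% at ZT17, without overlap. Only 6 of its 16 genes had reads, mostly Bmpr1b (24 reads at ZT5, 36 at ZT17) and Gpc5 (5 and 16), and Gfap, Aqp4, Slc1a2 and Slc1a3 were at 0. The choroid plexus list rested on Trpm3 alone, with 0.0545%, 0.0341% and 0.0796% at ZT5 and 0.0245%, 0.0305% and 0.0328% at ZT17, also without overlap, and Ttr was at 0. The part of these differences in the results above was not tested. Interneuron markers took 0.124% to 0.234% at ZT5 and 0.113% to 0.164% at ZT17, with overlap, as for all remaining cell type lists that had reads. Elavl2, described above, is on this list, with 45 reads at ZT5 and 13 at ZT17, while Zfp536, another of its genes, had 39 and 44.

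The levels at the other 4 time points place these differences in the day. Ssbp2(2-4) had means of 94.4 ± 10.7 at ZT1, 73.2 ± 2.48 at ZT9, 60.0 ± 18.3 at ZT13 and 83.3 ± 1.01 at ZT21 (SD, n = 3), so that ZT5 had its highest mean and ZT13 and ZT17 the lowest. Aftph(2) had means of 9.29 to 13.3 at the other times, and its ZT5 mean of 21.8 stood alone. Acer3(2-7) had 29.0 to 34.9 at the other times, and its ZT17 mean of 44.0 was the highest. Pclo(3) had its highest mean at ZT9 (20.1 ± 4.87) and its lowest at ZT13 (6.01 ± 5.57, SD, n = 3). Its difference between ZT5 and ZT17 thus did not follow the light and the dark phase. Cdr1as had its lowest mean at ZT13 (986 ± 379, SD, n = 3). The means at ZT1 and ZT13 include ZT1 replicate 3 and ZT13 replicate 1, which a separate setting treated as outliers.

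**Figure D5:**
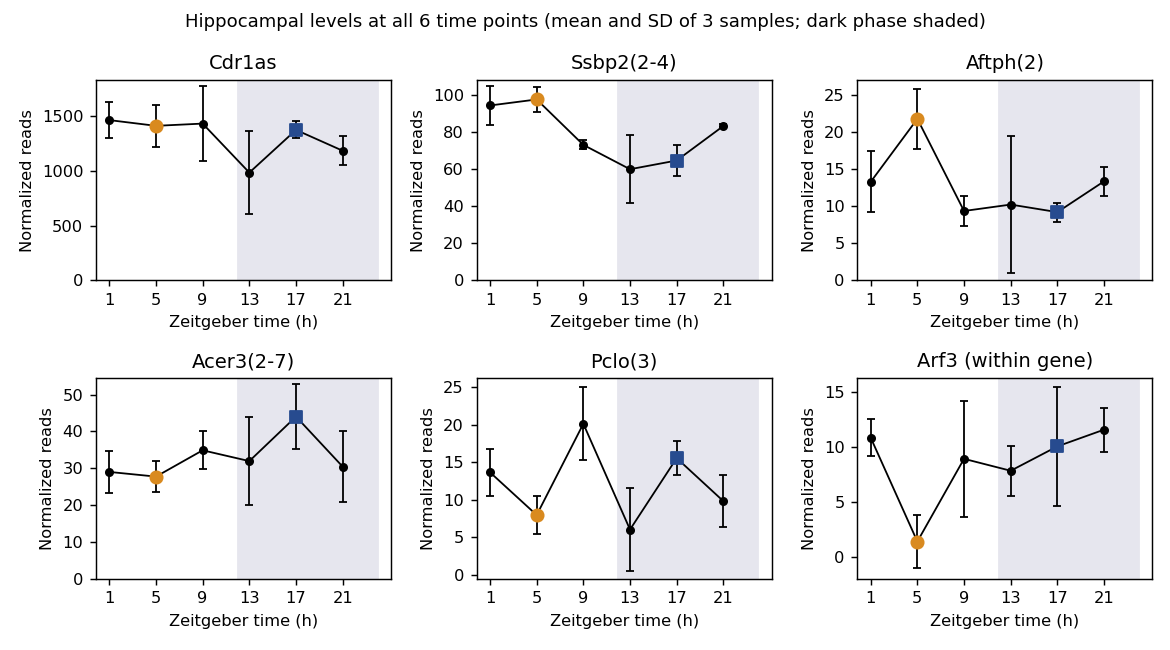
Mean normalized junction reads (points) and SDs (lines) of 3 hippocampus samples at each of the 6 zeitgeber times for Cdr1as and 5 circles with a small unadjusted p, with ZT5 in orange, ZT17 in blue and the dark phase shaded. Ssbp2(2-4) has its highest mean at ZT5 (97.7), and the Arf3 circle its lowest (1.38).

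The same comparison was available in the frontal cortex, and the difference between the tissues was tested directly. Of 710 circRNAs, 0 (0%) passed the test of the difference in edgeR, with 17 (2.39%) at an unadjusted p under 0.05, 8 (1.13%) more positive in the hippocampus and 9 (1.27%) more negative. With DESeq2's size factors 17 again had such a p, 15 of them the same, and the split was 10 and 7. DESeq2 also called 0 and gave 26 at an unadjusted p under 0.05. Leaving out 1 of the 12 samples gave 17 to 34 of the 833 to 842 circRNAs then tested. Without frontal cortex ZT5 replicate 2 it was 34, 8 more positive and 26 more negative, without cortex ZT5 replicate 1 it was 33 (16 and 17), and without cortex ZT5 replicate 3 it was 25 (8 and 17). It was 31 (15 and 16), 28 (16 and 12), 28 (11 and 17) and 25 (9 and 16) without hippocampus ZT5 replicates 1 and 2 and ZT17 replicates 1 and 2, each left out alone. Mfsd6(2), from a membrane transporter gene, had the smallest p. On the scale of the fit to both tissues it had 25.8, 11.5 and 11.0 normalized reads at ZT5 and 16.99, 19.2 and 24.1 at ZT17 in the hippocampus. Cortex samples had 30.03, 20.96 and 16.6 at ZT5 and 7.39, 8.71 and 12.5 at ZT17. The cortex groups were separate and the hippocampus groups were not.

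Odf2(4-18), from a centriole protein gene, had 9.84, 6.71 and 8.44 at ZT5 and 3.77, 3.84 and 3.14 at ZT17 in the hippocampus, without overlap. In the cortex it had 0, 3.70 and 0 at ZT5 and 3.69, 8.71 and 4.797 at ZT17. Cacna2d3(21-24), from a calcium channel subunit gene, had hippocampus means of 10.2 ± 3.74 at ZT5 and 6.85 ± 1.45 at ZT17, and cortex means of 4.79 ± 0.971 and 13.02 ± 3.19 (SD, n = 3). Prox1(2-4), from the gene that marks dentate granule cells, had 9.52 ± 1.72 and 11.6 ± 7.93 in the hippocampus (SD, n = 3), and in the cortex 5.56, 2.47 and 0 at ZT5 and 0 in all samples at ZT17. The fifth, Zfp532(6-8), was at 0 in the cortex at ZT5. The 5 differences had an adjusted p of 1.00 in edgeR's test.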

How the data were processed

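Per the labels and the study's methods, the authors mapped reads of ribosome-depleted total RNA to GRCm38 with BWA and identified circRNAs with CIRI2. The deposited tables hold raw counts of circular (junction) reads per circRNA and sample, and the smallest count above 0 is 2. In the hippocampus table, 1 column that matches no sample label was not used. CIRI2's default counting was taken as it stands, so junctions between near-identical loci may be misplaced.

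CircRNAs found in at least 2 replicates of a time point were kept, as in the study, and filtered with edgeR's filterByExpr (minimum count 10, minimum total 15). Counts of all 18 hippocampus samples were fitted together in edgeR 4.0.16 (R 4.3.3) with TMM scaling and the quasi-likelihood test, and the contrast ZT17 minus ZT5 was tested, with Benjamini-Hochberg adjustment over all tested circRNAs at a threshold of 0.05. Standard errors are the fold change divided by the root of F, and 95% intervals are for a single circRNA. DESeq2 1.42.0 was an alternative. Counts were also summed per host gene, and both tissues (36 samples) were fitted for the difference between tissues. Values per sample were compared with two-sided exact permutation tests, which cannot go below 0.1 with 3 against 3. With nothing stated about separate animals per replicate number, p-values measure the spread between these samples.

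Host genes and exons came from GENCODE vM21 on the same strand. Junction sequences were cut from its transcripts, 15 bases on each side. Counts were simulated with a single dispersion of 0.05 for all circles and with 200 of 582 circRNAs changed. The test recovered 33.5% of 2-fold and 93.5% of 4-fold changes, with 3 and 7 false calls, and with none changed it called 0. Circles with a wider spread, or fewer changed circles, were not simulated. For 619 host genes the test recovered 33% and 91.5%, with 3 and 6 false calls.

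The 10 circRNAs with most reads, the 8 in each direction with the smallest p (circRNAs and host genes), the 2 with most reads of each host list and the 5 with the smallest p for the tissue difference were named by rule, except circles that are not reported here. Members and lists were chosen with earlier results of these data known. Samples with the same replicate number did not deviate together (correlation of their deviations -0.074, -0.012 and -0.122), so the numbers were not used as a block. The positive correlations joined samples of different numbers. They were 0.249 for ZT5 replicate 3 with ZT17 replicate 1 and 0.190 for ZT5 replicate 2 with ZT17 replicate 3. For ZT5 replicate 1 with ZT17 replicate 2 the correlation was 0.143. The remaining pairs gave -0.064, -0.185 and -0.125. The source of this pattern was not tested, and the main fit took the samples as unpaired.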

Additional observations from a re-analysis of the deposited data

How the results depend on the processing

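No circRNA passed the test under DESeq2, other size factors, library totals, other filters on low counts, a fit of only the 6 samples, or without any single sample, and no host gene did under any setting tried. The smallest adjusted p of any circRNA in these settings was 0.0745 (an Arf3 circle, without ZT5 replicate 2). Looser filters gave 79 of 2876 and, with none, 120 of 5505 circRNAs at an unadjusted p under 0.05. With the replicate number as a replicate block the counts were 0 of 582 circRNAs, 0 of 619 host genes and 0 of 710 circRNAs for the tissue difference, and the paired difference of the Cdr1as share was -0.229 percentage points. The numbers share no source that the labels name, and the highest correlations of deviations joined samples of different numbers. A fit of only the 6 samples with the replicate block, chosen after seeing the data, called 1 circRNA, on an unplaced scaffold, to which no host gene was matched, with 12, 18 and 33 reads at ZT5 and 15, 2 and 0 at ZT17. Without the filter on low counts, the tissue difference was called for 4 circRNAs, Nell2(14-16), Cdr1as, one within Gm26917 and one within Ptms, named here after their values were seen. Nell2(14-16) had reads in 8 of 18 hippocampus and 3 of 18 cortex samples, the Gm26917 circle in 8 and 6, the Ptms circle in 13 and 7, and Cdr1as in all. Of the 6 samples compared, Nell2(14-16) had reads only in ZT5 replicate 3 (398) and ZT17 replicate 1 (367). The Gm26917 circle had reads only in ZT5 replicate 2 (194) and ZT17 replicate 3 (153). Both pairs of samples also had a positive correlation of deviations, and whether they share a source was not tested. The cause of these calls was not tested. Reads limit the precision: most circles tested had fewer than 113 reads over the 6 samples.

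Leaving out single samples moved differences near 0 across it. They ran from -2109 to 1852 reads for the total, from -0.692 to 0.117 percentage points for the Cdr1as share, from -0.179 to 0.0878 for the single-exon share and from -0.587 to 0.330 for the exon-boundary share, which was also 0.0060 over all circRNAs listed and 0.065 over those in all 3 replicates of a time point. Without ZT5 replicate 1, the shallowest sample, the total was -2109, and without ZT17 replicate 1 it was -299. On the log2 scale, the ranges were -0.12 to 0.061 for Cdr1as, -0.083 to 0.037 for Gigyf2(4-8), -0.18 to 0.06 for Slc8a1(2), -0.13 to 0.21 for Fat3(2), -0.37 to 0.14 for the Rims1 circle not named by exons, -0.25 to 0.13 for Rims1(30-32), -0.24 to 0.26 for Anks1b(5-8), -0.37 to 0.030 for Grin2b(7-11), -0.16 to 0.77 for Grm5(2-3), -0.0019 to 0.95 for Gabra2(4-8), -0.33 to 0.26 for Kcnt2(4-13), -0.35 to 0.086 for Cacna1c(2-3), -0.065 to 0.074 for Ncoa2(2-4), -0.085 to 0.030 for Rnf169(2-4) and -0.42 to 0.58 for Prox1(2-4). Nell2(14-16) ran from -9.93 without ZT17 replicate 1 to 9.98 without ZT5 replicate 3, and was -0.043 without the filter. Ncoa2(2-4), at -0.0053, was 0.0023 with the 6 samples and the replicate block, 0.0205 with DESeq2's size factors, 0.022 in DESeq2, 0.017 with library totals, 0.0041 with only the 6 samples and 0.0015 without ZT1 replicate 3 and ZT13 replicate 1. The other 667 recomputed values of named circRNAs kept their direction and side of the threshold.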
